A study of Rattus norvegicus with 3 samples.

Results

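The enzymes described here remove superoxide and peroxides, work with the thiols glutathione and thioredoxin, or reduce quinones. They were taken by name: the symbols of the glutathione transferases, glutathione peroxidases, peroxiredoxins, superoxide dismutases, glutaredoxins, thioredoxins and thioredoxin reductases, quinone reductases, and the single genes Txnip, Gclc, Gclm, Gss, Gsr, Cat and Srxn1. Of the 30957 genes listed, 61 carried such a symbol, and 59 members were left after keeping, for each symbol, the row with the highest mean. The study sequenced messenger RNA of motor cortex, 1 library for each of 3 male rats of the Sprague-Dawley strain, numbered 19, 35 and 70, after cerebral ischemia and reperfusion, in which blood flow to brain tissue is cut off and then restored. All 3 are labelled with a time of 8 weeks, without a statement of whether that is an age or an interval after surgery, and they make up 1 group. No control animals were analysed here, so the only comparison is between the rats of this group, and nothing below measures an effect of ischemia.

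Superoxide dismutases turn superoxide into hydrogen peroxide, which catalase, the glutathione peroxidases and the peroxiredoxins then break down. Glutathione peroxidases are re-reduced by glutathione, and most peroxiredoxins by thioredoxin. Glutathione is made by glutamate-cysteine ligase and glutathione synthetase, recycled by glutathione reductase, and joined to reactive compounds by the glutathione transferases. In brain, glutathione metabolism is known to be strong in astrocytes, which supply neurons with its precursors. Many of these genes are known targets of Nfe2l2 (Nrf2), a transcription factor that binds antioxidant response elements and is held back by Keap1.

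Promoter sequences are shown because the antioxidant response element is the best known control element of this family. RefSeq (build GRCr8) gave a promoter for 50 of the 59 members, all matched by symbol, and not for Gpx8, Gsr, Gstm6l, Gstt1, Gstt2, Mgst2, Prdx6, Sod3 and Txnip, and the 250 bases before the start were searched on both strands for the core TGACNNNGC. The core was present in 9 of the 50 (18%), and in 10.1% of all 33469 rat promoters searched the same way. Of the 48 members that reached a mean of 1 FPKM, 41 had a promoter and 6 of these had the core. Their windows are printed because they show how the core differs between members, with the core in capitals. All are written along the strand of the gene, so a core on the opposite strand appears as its reverse complement.
Gstp1, chr1:210769743-210769781, minus strand: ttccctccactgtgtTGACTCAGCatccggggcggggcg
Prdx1, chr5:135383756-135383794, plus strand: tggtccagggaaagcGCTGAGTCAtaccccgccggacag
Gclm, chr2:213031948-213031986, plus strand: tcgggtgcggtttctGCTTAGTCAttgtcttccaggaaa
Sod2, chr1:50050180-50050218, minus strand: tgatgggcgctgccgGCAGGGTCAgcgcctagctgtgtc
Gstz1, chr6:112525360-112525398, plus strand: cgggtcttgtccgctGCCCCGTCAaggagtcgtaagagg
Gstm7, chr2:198260320-198260348, minus strand: cagtcgaggctagatTGACACAGCctgtc
The core began at position -61 from the start in Gstp1, -135 in Prdx1, -172 in Gclm, -35 in Sod2, -231 in Gstz1 and -14 in Gstm7. In Gstp1 and Prdx1 the core overlapped an AP-1 site, searched as TGANTCA and found in 5 of the 41 promoters and in 6.34% of all. Srxn1, Mgst1 and Glrx had an AP-1 site without the core, and those of Srxn1 and Mgst1 are shown because both genes were past 2-fold between rats.
Srxn1, chr3:161064735-161064771, plus strand, AP-1 site in capitals: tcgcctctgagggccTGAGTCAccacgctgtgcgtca
Mgst1, chr4:172760775-172760811, plus strand, AP-1 site in capitals: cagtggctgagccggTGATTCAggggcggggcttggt
Of the members described below as past 2-fold between rats, 12 had a promoter and 1 of these, Prdx1, had the core, against 5 of the 29 others. A match is a string of letters in a short window, and a missing match says only that the letters are not in that window.

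Levels are the FPKM values that the authors deposited, which scale fragment numbers to gene length and to a library of 1000000 fragments, always in the order of rats 19, 35 and 70. Low values come in whole-number steps, from which the effective depth was 15561620, 16460585 and 16049598 fragments. On a gene of 1 kb, 1 FPKM then stood for 15.6, 16.5 and 16.0 fragments. The library of rat 35 stood apart in its cell type markers. Its 9 neuronal markers summed to 61.4 FPKM, against 1452 and 2167 in rats 19 and 70, and its 12 markers of microglia and phagocytes summed to 14053, against 2155 and 1905. All 9 neuronal markers were lowest in rat 35, led by Snap25 of synaptic vesicle fusion at 383, 12.2 and 564 FPKM. None of the 9 was at 0, so neuronal RNA was present in all libraries of the labelled cortex, at a low level in that of rat 35. In bulk tissue, fewer cells of a type and less RNA per cell cannot be told apart.

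Most of the family was expressed in all rats. Of the 59 members, 48 reached a mean of 1 FPKM, 44 of them a mean of 5 and 10 a mean of 100. The most abundant were Gpx1, Prdx2, Gstp1, Gpx4, Txn1, Prdx5, Sod1, Gstm1, Prdx1 and Txnip. Together the members took 0.45%, 0.64% and 0.48% of the summed FPKM. Another 5 members (Gpx2, Gsta3, Gstt4, Gstm3 and Gstm6l) were above 0 with a mean under 1, from 0.0229 to 0.870 FPKM, and 6 (Gpx5, Gpx6, Gsta2, Gsta5, Gstm5 and Gstt2) were listed at 0 in every rat. A listed 0 can be a failed estimate, and Gstm, Gsta and Gstt genes lie in clusters of similar copies.

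**Figure D1:**
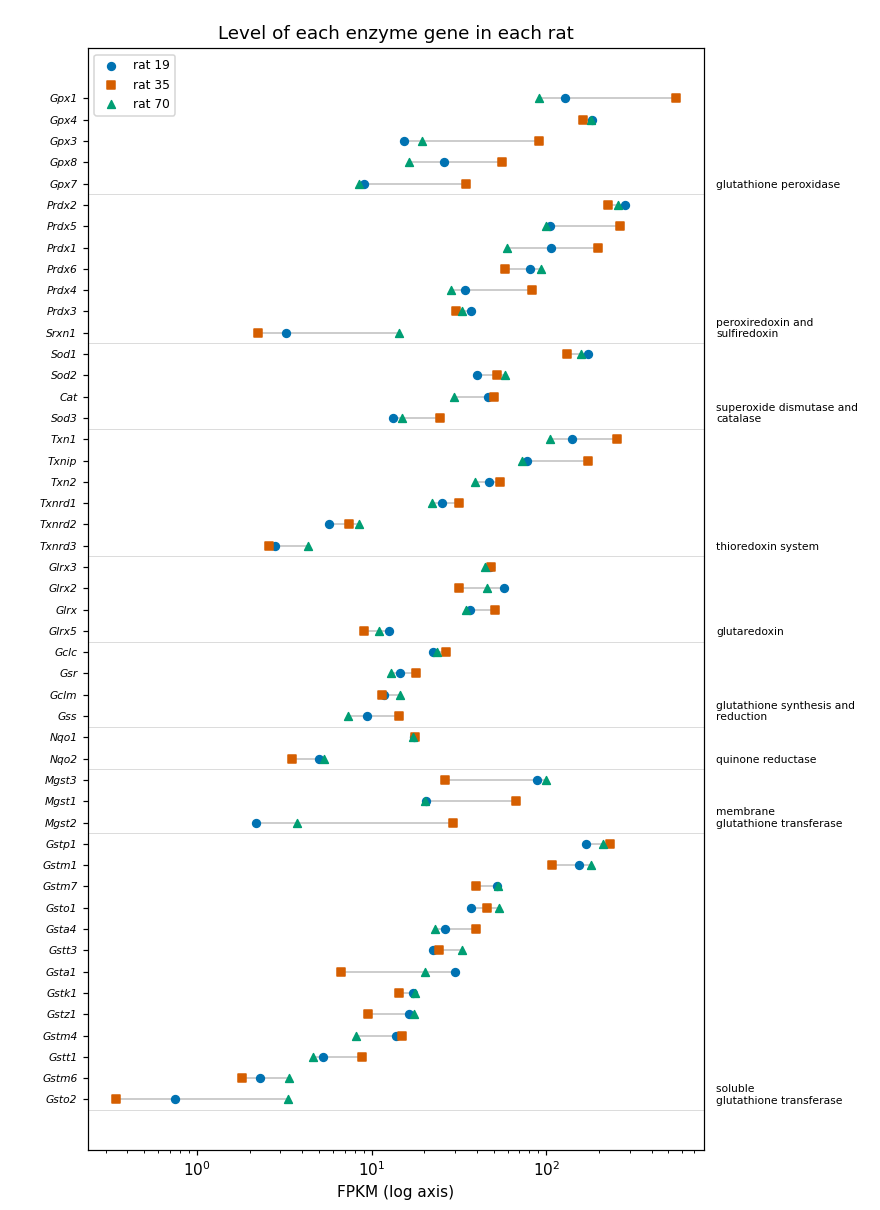
FPKM (log axis) of the 48 members with a mean of 1 FPKM or more, 1 row per gene and grouped by enzyme class, with 1 point per rat and a line from the lowest to the highest rat. Rat 35 lies far to the right for Gpx1, Gpx3, Gpx7 and Mgst2 and to the left for Mgst3 and Gsta1, while the points of Nqo1 and Glrx3 nearly coincide.

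Most of the enzymes differed by less than 2-fold between rats. A gene was counted as past 2-fold when its highest minus lowest log2(FPKM + 1) over the 3 rats was above 1, and 15 of the 48 members were (31.2%), against 42.5% of all 14134 genes with a mean of 1 FPKM or more. The median SD was 0.36 (log2, n = 3) over the members and 0.45 over all genes. Of the 15, 11 were highest in rat 35 (22.9% of the 48, against 20.6% of all genes), 3 in rat 70 (6.25%, against 14%) and 1 in rat 19 (2.08%, against 7.87%). Those lowest in rat 35 numbered 4 (8.33%, against 18.7%). Without rat 35 the count was 2 of the family, Srxn1 and Gsto2, and the background was 11.1%. Without rat 70 it was 11, with Srxn1, Gsto2, Prdx1 and Txn1 lost, against 26% of all genes.

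**Figure D2:**
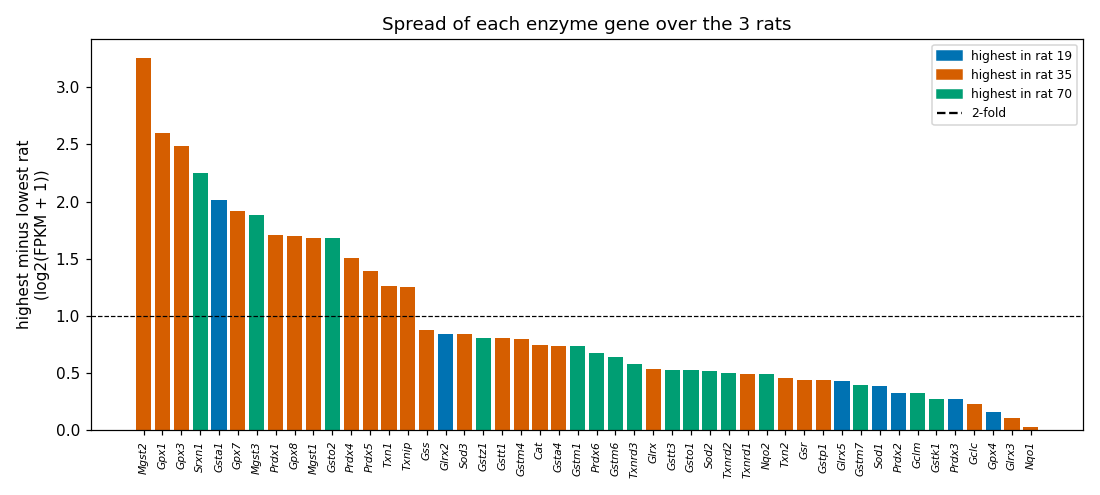
Highest minus lowest rat in log2(FPKM + 1) for each of the 48 members, sorted, with the colour giving the rat of the highest value and a dashed line at 2-fold. The 15 bars above the line run from 1.25 to 3.26, and the next bar below it is at 0.88.

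The least uneven member past 2-fold, Txnip, had a range of 1.25 and the next below it, Gss, one of 0.88. That gap depended on scaling: without mitochondrial genes Txnip and Gstm1 lay on either side of the threshold with equal rounded ranges, and Glrx2 at 1.05 and Gstz1 at 1.09 passed it. The median deviation of the members from each gene's mean over rats was -0.08, 0.06 and -0.02, beside 0.02, 0.06 and -0.09 for all genes, and its sign in rats 35 and 70 differed under other scalings. Some members were highest and others lowest in the same rat. Whole fragments could be recovered for all 48, and in 46 of them the exact binomial 95% interval of the highest over the lowest rat excluded 1, the exceptions being Nqo1 and Glrx3. These intervals cover counting error only and say nothing about variation between animals. The highest and lowest rats were picked from the same values, and the intervals do not allow for that choice.

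**Figure D3:**
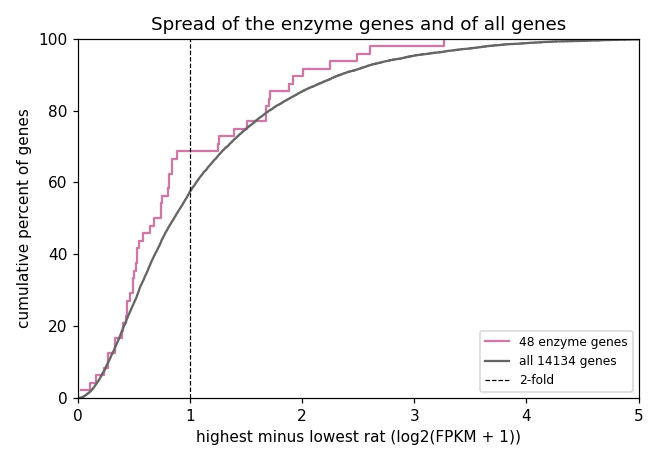
Cumulative percent of genes by highest minus lowest rat in log2(FPKM + 1), for the 48 members and for all 14134 genes with a mean of 1 FPKM or more, with a dashed line at 2-fold. At that line 31.2% of the members and 42.5% of all genes lie to the right.

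Of the glutathione peroxidases, 4 of the 5 measured were past 2-fold, against 42.5% of all genes. All 4 were highest in rat 35, where 20.6% of all genes were both past 2-fold and highest in that rat. Without rat 35 none was past 2-fold, against 11.1% of all genes. The counts of this and the other small classes were not tested. Gpx1, the selenium-dependent peroxidase of cytosol and mitochondria (chromosome 8, 117117430 to 117118522, Rnor 6.0), was at 127, 552 and 90.2 FPKM. Rat 35 was far above the other rats. The fold of rat 35 over rat 70 was 6.12, with a counting interval of 5.77 to 6.50. Gpx3, the secreted peroxidase of plasma (chromosome 10, 40247436 to 40255422), was at 15.3, 90.8 and 19.3, again with rat 35 alone high. Gpx7 and Gpx8 reside in the endoplasmic reticulum. Gpx7 was at 9.05, 34.7 and 8.45 FPKM, and Gpx8 at 25.8, 55.4 and 16.3. Gpx4, which reduces lipid peroxides in membranes and guards against ferroptosis, behaved otherwise, at 182, 163 and 181 FPKM (175 ± 10.5, SD, n = 3). Its range was 0.16 in log2 and no more than 0.40 under any of 3 other scalings.

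Of the 6 peroxiredoxins, 3 were past 2-fold and highest in rat 35, against 20.6% of all genes. The other 3 were not past 2-fold. Prdx1, a cytosolic peroxiredoxin (chromosome 5, 135536413 to 135551990, Rnor 6.0), was at 106, 197 and 59.3 FPKM, with the rats well separated. Prdx4, the one in the endoplasmic reticulum, was at 34.0, 83.2 and 28.6. Prdx5, found in mitochondria, peroxisomes and cytosol, was at 105, 265 and 100, so that in Prdx4 and Prdx5 rats 19 and 70 were close and rat 35 was high. Prdx2, the cytosolic form known to be abundant in neurons, was at 283, 225 and 257 FPKM (255 ± 29.0, SD, n = 3). Prdx3, the mitochondrial form, was at 37.2, 30.5 and 33.1. Prdx6, which uses glutathione and also has phospholipase activity, was at 81.0, 58.0 and 93.2. In these 3 genes rat 35 was the lowest, but none passed 2-fold.

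Srxn1 was, like Gsto2 and Mgst3 among the transferases, past 2-fold and highest in rat 70. It encodes sulfiredoxin, which repairs overoxidized peroxiredoxins (chromosome 3, 147609095 to 147632801, Rnor 6.0), and it was at 3.25, 2.24 and 14.4 FPKM. Rat 70 was high, and rats 19 and 35 were low. These values rest on at least 37, 27 and 169 fragments. The fold between rats 70 and 35 was 6.42, with a counting interval whose lower end is 4.26. Its range was 0.39 without rat 70.

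Superoxide dismutases and catalase summed to 272, 259 and 260 FPKM. None of these 4 genes passed 2-fold, where 42.5% of all genes did. Sod1, the copper-zinc enzyme of the cytosol, was at 173, 132 and 157 FPKM (154 ± 20.7, SD, n = 3). Sod2, the manganese enzyme of mitochondria, was at 40, 52.0 and 57.8. Rat 35 was the lowest in Sod1, and rat 19 in Sod2. Sod3, the extracellular enzyme, was at 13.2, 24.5 and 14.9, highest in rat 35 with a range of 0.84. Cat, the peroxisomal catalase, was at 46.1, 50.3 and 29.5, where rat 70 was the lowest.

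In the thioredoxin system, 2 of 6 genes were past 2-fold and highest in rat 35, against 20.6% of all genes. Txn1, the cytosolic thioredoxin (chromosome 5, 75049747 to 75057752, Rnor 6.0), was at 141, 253 and 105 FPKM. Txnip, which binds and inhibits thioredoxin and limits glucose uptake (chromosome 2, 198683159 to 198686974), was at 77.9, 172 and 72.1. Thioredoxin and its inhibitor were thus both highest in the same library. Without rat 35 neither passed 2-fold, with ranges of 0.42 and 0.11, where 11.1% of all genes did. The mitochondrial thioredoxin gene Txn2 was at 47.2, 54.0 and 39.0. The reductases that recharge thioredoxin differed less: Txnrd1 of the cytosol was at 25.4, 31.6 and 22.2, and Txnrd2 of mitochondria at 5.71, 7.37 and 8.49. Txnrd3 had a mean of 3.24 and a range of 0.58.

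Glutaredoxins are small enzymes that reduce protein-glutathione disulfides or carry iron-sulfur clusters. They had 0 of 4 genes past 2-fold, against 42.5% of all genes. When levels were scaled without mitochondrial genes the count was 1, Glrx2, against 46.8%. Glrx3 of the cytosol was at 47.3, 48.2 and 44.7 FPKM. Glrx was at 36.6, 50.7 and 34.6, and the mitochondrial Glrx5 at 12.5, 8.99 and 11. Glrx3 was among the most even of the family, with a range of 0.11. Glrx2, also mitochondrial, was at 57.3, 31.5 and 45.7. The shortest length that fitted was 158 bp, which gave 141, 82 and 116 fragments. A longer length, with more fragments, could fit as well, so these are the fewest possible.

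Synthesis and recycling of glutathione also had 0 of 4 genes past 2-fold, against 42.5% of all genes. Gclc, the catalytic subunit of the rate-limiting ligase, was at 22.5, 26.6 and 23.6 FPKM. Gclm, its modifier subunit, was at 11.8, 11.4 and 14.6. The ranges of the subunits were 0.23 and 0.33. Gss, which adds glycine, was at 9.36, 14.4 and 7.35, and Gsr, the reductase that recycles oxidized glutathione, at 14.6, 17.9 and 12.9, both with rat 35 highest. Nqo1, a quinone reductase often read as a target of Nfe2l2, was at 17.5, 17.6 and 17.2 (17.4 ± 0.207, SD, n = 3), the smallest range of the 48 members (0.03). It was 0.22 at most under other scalings, and the order of rats in Nqo1 and Glrx3 then differed. Nqo2 had a mean of 4.61 and a range of 0.49.

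All 3 measured membrane glutathione transferases were past 2-fold, against 42.5% of all genes, and they did not share a direction. No other class had every measured member past 2-fold, but this class holds only 3 genes. Mgst1, which conjugates glutathione in the endoplasmic reticulum and outer mitochondrial membrane (chromosome 4, 172119331 to 172134607, Rnor 6.0), was at 20.5, 67.1 and 20.2 FPKM. Mgst2, which can also make leukotriene C4 (chromosome 2, 140708397 to 140727281), was at 2.18, 29.4 and 3.73. Rat 35 was high and the other rats were close in each. Mgst2 had the widest range of the family (3.26), on at least 13, 186 and 23 fragments. Its fold between rats 35 and 19 was 13.5, with a counting interval of 7.72 to 25.9. Mgst3 (chromosome 13, 85601499 to 85622314) went the other way, at 88.9, 26.3 and 99.8, with rat 35 low. As a result the summed level of the class was 112, 123 and 124 FPKM although each member differed. Without rat 35 none of the 3 passed 2-fold, where 11.1% of all genes did.

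Soluble glutathione transferases had 2 of 13 members past 2-fold, against 42.5% of all genes. Gstz1 was added when levels were scaled without mitochondrial genes, where the share of all genes was 46.8%. Gstp1, the pi form, was at 169, 230 and 210 FPKM, and Gstm1, a mu form of high level here, at 154, 107 and 180. Gstm1 was lowest in rat 35, and Gstp1 in rat 19. Gsta4, which conjugates the lipid peroxidation product 4-hydroxynonenal, was at 26.3, 39.3 and 23.1. Gsta1 (chromosome 9, 27368272 to 27452902, Rnor 6.0) was at 29.8, 6.67 and 20.2, the one member past 2-fold that was highest in rat 19. Rat 35 was well below the others in Gsta1, with a fold of 4.47 between rats 19 and 35 and a counting interval of 3.77 to 5.32. Gsto2 was at 0.753, 0.344 and 3.30, high in rat 70, on at least 29, 14 and 131 fragments. The Gsto2 locus overlaps that of Gsto1 on the same strand, and Gsto1 was at 36.9, 45.5 and 53.6, so fragments shared by the pair make Gsto2 uncertain.

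The remaining transferases had ranges from 0.27 to 0.81. Gstm7 was at 52.0, 39.7 and 52.7 FPKM, and its locus spans those of Gstm6, Gstm3 and Gstm6l on the same strand. Gstt3 was at 22.5, 24.4 and 33.0, and Gstk1, of mitochondria and peroxisomes, at 17.3, 14.4 and 17.7. None of these separated 1 rat from the others by 2-fold. Gstz1, which also breaks down tyrosine products, was at 16.3, 9.57 and 17.5. Gstm4 was at 13.7, 15 and 8.14, and Gstt1 at 5.29, 8.84 and 4.60. Gstm6 had a mean of 2.48 and a range of 0.64.

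Members were also sorted by where the proteins work, a grouping made after the values were seen and therefore only descriptive. The 5 members listed as secretory or extracellular had the same highest rat. Prdx4, Gpx3, Gpx7, Gpx8 and Sod3 were all highest in rat 35, as were 45.4% of all genes, and summed to 97.3, 288 and 87.6 FPKM. Of these 5, 4 were past 2-fold, where 20.6% of all genes were past 2-fold and highest in rat 35. The membrane glutathione transferases, among them Mgst1 of the endoplasmic reticulum, were left out of this list. Of those, Mgst1 and Mgst2 were highest in rat 35 and Mgst3 was lowest there. Of 8 members listed as mitochondrial, Prdx5 alone passed 2-fold, where 42.5% of all genes did. Gpx1 and Mgst1, described above as partly mitochondrial, were left out of that list, and both were past 2-fold. Without rat 35 none of the 5 and none of the 8 listed passed 2-fold, where 11.1% of all genes did. Fibroblast markers summed to 232, 2612 and 211 FPKM, with 4 of 5 above 0, all highest in rat 35, and Col1a2 listed at 0. Endothelial markers summed to 172, 293 and 166, all 5 highest in rat 35. All 12 microglia and phagocyte markers were highest in rat 35, with Ctsd at 697, 3576 and 466 and Spp1 at 224, 4161 and 126. So were 25 of the 48 members (52.1%), against the 45.4% of all genes. Neuronal markers were lowest in rat 35, as were 19 of the 48 members (39.6%) and 36.5% of all genes. Blood leukocyte markers summed to 8.70, 165 and 8.73, and erythrocyte markers to 25.6, 107 and 33.5. The 8 astrocyte markers summed to 3043, 1005 and 1883, a sum led by Gfap at 1878, 564 and 688. Of these 8, 5 were highest in rat 19 and 3 in rat 70. Oligodendrocyte markers summed to 4318, 3619 and 5675. Choroid plexus markers summed to 39.0, 6.76 and 367, a sum set by Ttr at 33.1, 0.173 and 362, the 1 of 3 measured markers past 2-fold. Kcnj13, at 3.94, 3.87 and 2.73, did not share that order. Several marker lists were highest in rat 35 together, so an enzyme highest there cannot be assigned to any of them. The part of these cell types in the enzyme levels was not tested.

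**Figure D4:**
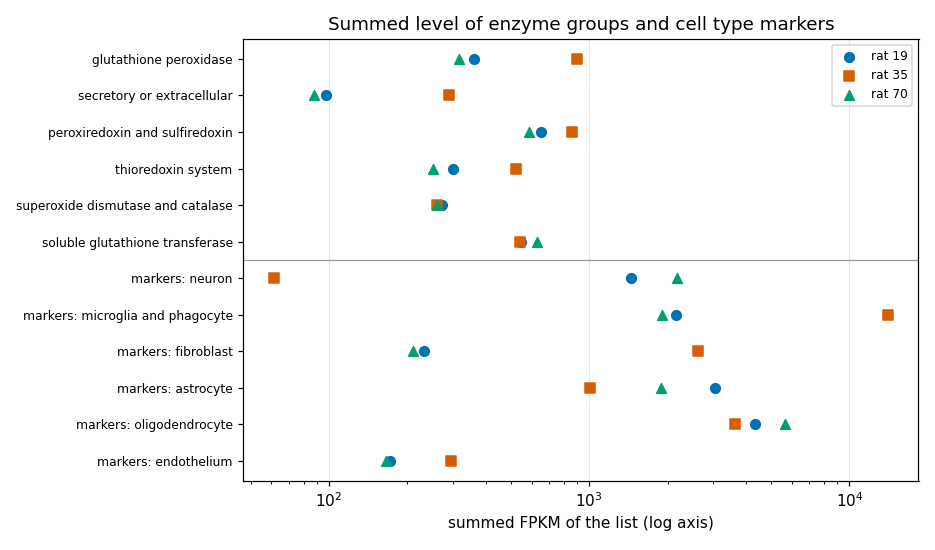
Summed FPKM (log axis) of 6 enzyme groups, above the line, and of 6 cell type marker lists, below it, with 1 point per rat. Rat 35 is highest in the glutathione peroxidases (897 FPKM) and secretory members (288) and in the phagocyte (14053) and fibroblast (2612) markers, and lowest in the neuronal markers (61.4).

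Ratios within a rat compare relatives, and the scaling of the library cancels from them except through the 1 added to each FPKM. They were not recomputed under the other scalings. For 10 pairs the mean log2 ratio of FPKM + 1 was tested over the 3 rats with a two-sided exact sign-flip permutation test, whose smallest possible p is 0.25 (0.312 after Benjamini-Hochberg adjustment over the 10 pairs), so no pair could pass 0.05. In 8 pairs all 3 rats had the same sign, with exact p = 0.25. Among them Sod1 was above Sod2 by 1.61 ± 0.41 and Prdx5 above Prdx3 by 2.04 ± 0.90 (log2, SD, n = 3). The ligase subunit ratio Gclc over Gclm was the steadiest, at 0.88, 1.15 and 0.65. The cytosolic Txn1 and Txnrd1 exceeded the mitochondrial Txn2 and Txnrd2 by 1.72 ± 0.42 and 1.74 ± 0.39. Gstp1 exceeded Gstm1 by 0.48 ± 0.53, and Gsta4 was below Gstm1 in all 3 rats, at -2.28 ± 0.77. Prdx2 exceeded Prdx1 by 1.41 and 2.10 in rats 19 and 70 but by 0.20 in rat 35. In the other 2 pairs the order of the genes differed by rat. Gpx4 over Gpx1 was 0.52, -1.75 and 0.99 (exact p = 1, adjusted 1), and Mgst3 over Mgst1 was 2.06, -1.32 and 2.25 (exact p = 0.5, adjusted 0.556). Rat 35 alone had more Gpx1 than Gpx4 and more Mgst1 than Mgst3, and without it the mean ratios were 0.76 and 2.16.

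**Figure D5:**
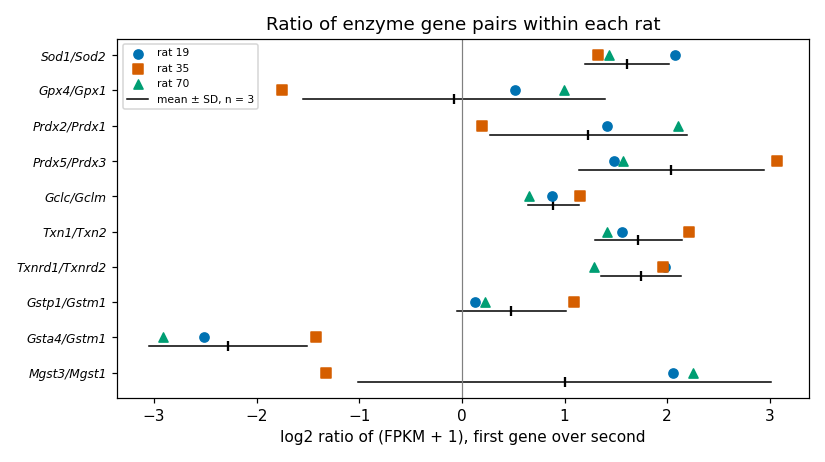
Log2 ratio of FPKM + 1 of the first over the second gene in 10 pairs, with 1 point per rat and a black bar for mean ± SD (n = 3) under the points. Rat 35 lies on the other side of 0 from rats 19 and 70 in Gpx4/Gpx1 and Mgst3/Mgst1, and Gclc/Gclm has the shortest bar.

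Other redox genes, from a list of 58 outside the family, were past 2-fold in 24 of the 49 measured, against the 42.5% of all genes, with 17 highest in rat 35 and 7 in rat 70, where all genes had 20.6% and 14%. Without rat 35 the count was 5 of 50, against 11.1% of all genes, and without rat 70 it was 14 of 49, against 26%. The counts for rat 70 and those without a rat thus lay near the shares of all genes. Nfe2l2 itself was at 30.8, 59.3 and 20 FPKM and past 2-fold, while its inhibitor Keap1 was at 18.1, 16.9 and 19.8. Hmox1, the heme oxygenase known as a target of Nfe2l2, was at 34.7, 131 and 22.6. The order of rats in Nfe2l2 and Hmox1 was that of Prdx1 and Txn1, and not that of Gclm or Srxn1.

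Ranges from 2.92 to 3.15 were found in genes of the phagocyte NADPH oxidase, which makes oxidants rather than removing them, and in Ggt7. Ncf1, Cybb and Cyba encode parts of the oxidase. They were at 27.0, 148 and 15.8, at 6.51, 58.8 and 7.18, and at 64.7, 297 and 38.3 FPKM. All 3 were highest in rat 35, as were the phagocyte, fibroblast and endothelial markers and 45.4% of all genes. Anpep, an aminopeptidase that splits a breakdown product of glutathione, was at 5.58, 46.3 and 7.08, and Oplah, which recycles 5-oxoproline to glutamate, at 37.7, 91.1 and 14.2. Txndc5, a thioredoxin-like protein of the endoplasmic reticulum, was at 37.5, 130 and 32.9. Ggt7, of the gamma-glutamyltransferase family, had a range of 3.15. It was the exception in direction, at 37.7, 4.81 and 50.7, low in rat 35 as Mgst3 was.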

How the data were processed

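The 3 libraries of motor cortex were taken as 3 animals by their numbers. The authors deposited FPKM for 30957 genes, computed by a Perl script from normalized fragment numbers, per the labels. The submitters' processing notes list HISAT2 2.0.4, StringTie 1.3.0 and Rnor 6.0, with no role for any. How fragments were normalized and whether strand was used: not given in the sources used here. Of the 48 measured members, 10 overlap another gene, 4 on the same strand.

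Differences are on the log2(FPKM + 1) scale, where those of low genes come out too small, computed with Python 3.11.15, numpy 2.4.6, pandas 2.3.3 and scipy 1.17.1. Only genes averaging at least 1 FPKM were compared. Effective depth came from the step of low values: at the best step 65.3%, 66.4% and 64.9% of the values of short genes were whole numbers, against 0.8% at the median step. Fragment numbers were recovered as whole numbers (within 0.005) under the shortest length up to 20000 bp that fitted all rats, which gives the smallest possible numbers and the widest intervals. Intervals of a fold are exact 95% binomial intervals, cover counting error only and do not allow for the choice of the highest and lowest rat. The code that counts genes past 2-fold was checked on simulated data, which tests the code and not the counts reported.

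Members, gene lists and pairs were chosen with earlier results of these data known, and the location groups and promoter motifs after the values were seen. All members are accounted for: values in every rat for means of 5 FPKM or more, and for lower ones where they passed 2-fold. Of the other redox genes the 8 past 2-fold with the widest range were named, with Nfe2l2, Keap1 and Hmox1, and of each marker list at most 2 genes, with Col1a2 added. Alternatives were a pseudocount of 0.1, minima of 0.5 and 5 FPKM or none, 3 other scalings, summed rows per symbol and leaving out each rat. Counts by enzyme class, by location and for other redox genes without each rat were added after seeing the data. The exact p over 3 rats is 0.25 whenever all signs agree, whatever the spread, and concerns these libraries only.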

Additional observations from a re-analysis of the deposited data

How the results depend on the processing

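The count of 15 members past 2-fold was between 14 and 18 under the other pseudocount, minima, scalings and row rule, and all 15 stayed in it except Gsto2 at a mean of 5 FPKM or more. Gpx2 joined them when rescaled to a sum of 1000000, and Gpx2, Glrx2 and Gstz1 without mitochondrial genes. Leaving out 1 rat gave 2 to 15 members, the 2 without rat 35. The rat with the highest value was the same under all 3 other scalings for 38 of 48 members and the lowest for 40, among them the highest rat of all 15 past 2-fold. Rescaling to a sum of 1000000 shifted the median gene by 0.80, 0.85 and 0.96 (log2), and without mitochondrial genes by 1.33, 1.14 and 1.38.

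The order of rats 19 and 70 depended on scaling. For rat 19, members past 2-fold and highest numbered 2 (sum of 1000000) and 3 (without mitochondrial genes) in place of 1, and those lowest 6 (sum of 1000000 and median of ratios) in place of 2. Of any size, 11 were highest there (without mitochondrial genes, in place of 7) and 16 or 14 lowest (sum of 1000000 or median of ratios, in place of 9). By the median of ratios, 5 in place of 9 past 2-fold and 13 in place of 20 of any size were lowest in rat 70. The median deviation of rat 35 was 0.16 at 5 FPKM or more and -0.07 without mitochondrial genes, and that of rat 70 was 0.07, 0.08 and 0.08 under the sum of 1000000, the median of ratios and without mitochondrial genes.

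With 1 rat left out, those past 2-fold and highest numbered 0 to 2 in rat 19, 9 to 11 in rat 35 and 2 to 4 in rat 70, and those lowest 2 to 9, 2 to 4 and 0 to 11. Of any size, 19 to 27, 25 to 29 and 21 to 23 were highest and 21 to 29, 19 to 23 and 25 to 27 lowest, which fewer rats to choose from raises by construction. Median deviations were -0.08 to 0.02 in rat 19, 0.03 to 0.08 in rat 35 and -0.03 to -0.02 in rat 70. Of the pair ratios, Gpx4 over Gpx1, -0.08 with all rats, was 0.76 without rat 35 (range -0.62 to 0.76), and the other 9 kept their sign under the pseudocount, row rule and left-out rats, with ranges of 1.38 to 1.76 (Sod1/Sod2), 0.80 to 1.75 (Prdx2/Prdx1), 1.52 to 2.32 (Prdx5/Prdx3), 0.76 to 1.01 (Gclc/Gclm), 1.48 to 1.88 (Txn1/Txn2), 1.63 to 1.97 (Txnrd1/Txnrd2), 0.18 to 0.66 (Gstp1/Gstm1), -2.71 to -1.97 (Gsta4/Gstm1) and 0.37 to 2.16 (Mgst3/Mgst1) over the left-out rats. No paired analysis was possible because there is 1 group. Depth limits Gpx2, Gsta3, Gstt4, Gstm3 and Gstm6l, which had means under 1 FPKM. Their shortest fitting lengths gave 20 fragments or fewer in each rat, which are the fewest possible.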
